A study of Mus musculus with 12 samples.

Results

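The G1 cyclins, CDKs, and CDK inhibitors, which govern entry into the cell cycle, were followed in donor T cells from the liver as 10 genes: the D-type cyclins Ccnd2 and Ccnd3, their kinase partners Cdk4 and Cdk6, the E-type cyclin Ccne1, the transcription factor E2f1, its inhibitor Rb1, and the CDK inhibitors Cdkn1a (p21), Cdkn1b (p27), and Cdkn2c (p18). They were taken by symbol and are 10 of the 25078 genes listed in the tables. The 12 libraries hold bulk RNA from CD4+ or CD8+ T cells sorted on day 6 after hematopoietic cell transplantation (HCT). The recipients were lethally irradiated WT BALB/c mice. They were given T cell-depleted marrow of WT C57BL/6 mice plus T cells of 1 of 3 genotypes of C57BL/6 donor. The donors were WT, STAT3ko (floxed Stat3 alleles deleted by Cre under the CD4 promoter, which acts in both subsets), or STAT3ko PD-1ko (the same deletion together with a germline PD-1 deficiency). Each of the 6 groups had 2 libraries, and each library pooled liver lymphocytes from 3 recipients. None of the 6 groups lacked PD-1 alone, so the comparison of STAT3ko PD-1ko with WT changes both genes at once, and the comparison with STAT3ko changes PD-1 on a STAT3-deficient background. The ages of the mice were not given in the sources used here.

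In background, T cells that receive antigen and growth signals raise D-type cyclins, which bind CDK4 and CDK6 and phosphorylate the RB protein. RB that is phosphorylated releases E2F factors, and these drive Ccne1 and the genes of DNA replication. Cyclin E with CDK2 then completes the passage into S phase. p27 and p21 bind cyclin-CDK complexes, and p18, of the INK4 family, binds CDK4 and CDK6 directly. Much of the control of p27 lies in protein stability, which RNA does not show.

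The targeted genes followed the labels. Stat3 was at 369 and 467 CPM (the read count scaled to the effective size of its library, given for replicate 1 and replicate 2) in WT CD4+ T cells, 139.9 and 164 in STAT3ko, and 157 and 219 in STAT3ko PD-1ko. The levels in CD8+ T cells were 397 and 384, 149 and 136, and 154 and 235 CPM. No knockout library reached a WT library, although Stat3 RNA remained in each. The fall from WT to STAT3ko PD-1ko passed edgeR's quasi-likelihood test (adjusted p = 0.0180 in CD4+ and 0.0177 in CD8+), whereas the fall from WT to STAT3ko, by 1.46 on the log2 scale in each subset, did not (adjusted p = 0.0550 and 0.108, edgeR). The test thus left the deleted gene itself uncalled in that comparison. Pdcd1, which encodes PD-1, fell by 2.55 and 2.09 on the log2 scale from WT to STAT3ko PD-1ko (adjusted p = 0.00566 and 0.00243, edgeR). Its RNA also remained, at 55.1 and 26.0 CPM in STAT3ko PD-1ko CD4+ T cells against 247 and 235 in WT. In CD8+ T cells it was at 93.6 and 65.6 CPM against 376 and 307.

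The sorted subsets were distinct. Cd4 reached at most 2.73 CPM in CD8+ libraries against at least 1242 in CD4+ libraries, and Cd8a at most 5.64 CPM in CD4+ libraries against at least 589 in CD8+ libraries. Summed over 10 hepatocyte markers the level was 1.46 to 5.18 CPM, and over 6 erythroid markers at most 0.563. The 10 myeloid markers summed to 7.25 to 37.0 CPM, of which Cd68 made up 5.93 to 29.1, and the other 9 came to at most 8.38. These 9 came to 8.38 and 8.11 CPM in WT replicate 2 (CD4+ and CD8+), 5.56 in each STAT3ko replicate 2 library, 0.388 to 1.32 in the replicate 1 libraries of WT and STAT3ko, and 0.822 to 1.31 in STAT3ko PD-1ko. Of the 10 myeloid markers 6 were tested, with a median log2 difference between STAT3ko PD-1ko and WT of -2.41 in CD4+ and -2.45 in CD8+ T cells, and Cd68 in CD8+ T cells was the 1 called. The 6 endothelial and stellate markers summed to 110.4 to 198 CPM, nearly all of it Pecam1, and the rest came to at most 2.78. Cd68 and Cd79b, a gene of the B cell receptor, in CD8+ T cells were lower in the STAT3ko PD-1ko libraries (Cd68 16.9 and 18.3 CPM, Cd79b 5.92 and 5.10) than in the WT libraries (Cd68 29.1 and 28.9, Cd79b 14.5 and 10.6). Some T cell markers also fell from WT to STAT3ko PD-1ko. Of 11, 2 fell in CD4+ T cells (Cd2 and Cd4, by 0.53 and 0.52 on the log2 scale) and 6 in CD8+ T cells (Cd8a, Cd8b1, Cd2, Cd3d, Cd247, and Lck), where 5.65% and 8.21% of all genes fell, and 0 rose in either. The largest of these falls was that of Cd8a, from 1191 and 1339 CPM in WT to 595 and 589 in STAT3ko PD-1ko CD8+ T cells (log2 -1.09, adjusted p = 0.00414, edgeR). The part of these genes in the results below was not tested, and the remainders given above include the defining markers Csf1r and Cdh5.

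The libraries held 21676125 to 24551477 counts, and every member passed the filter on low counts in every fit. The smallest count of a member in a library was 191 (Cdkn1a) and the largest 12570 (Ccnd2). On the deposited RPKM scale, which divides by exon length and so allows levels of different genes to be compared, Cdk4 was the most abundant member (median of 116 RPKM over the 12 libraries). Ccnd3 (59.7), Ccnd2 (53.5), and Cdkn1b (43.0) followed. Ccne1 (31.8), Cdkn2c (27.7), and Cdk6 (26.6) lay in the middle, and Rb1 (18.6), E2f1 (13.5), and Cdkn1a (11.1) were the lowest. Ccnd1, the remaining D-type cyclin, had 0 to 10 counts per library and made up at most 0.0904% of the RPKM of the D-type cyclins, so Ccnd2 and Ccnd3 account for nearly all D-type cyclin RNA in these cells. A further limit is that 3 members share bases with a neighbouring gene on the opposite strand. These are Ccnd3 (358 bases with Bysl), Rb1 (2468 bases with Lpar6), and Ccnd2 (1660 bases with 9330179D12Rik). The strand setting of the counting was not stated. Rb1 also shares 89 bases with Mir687 on its own strand, which had 8 counts over the 12 libraries.

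**Figure D1:**
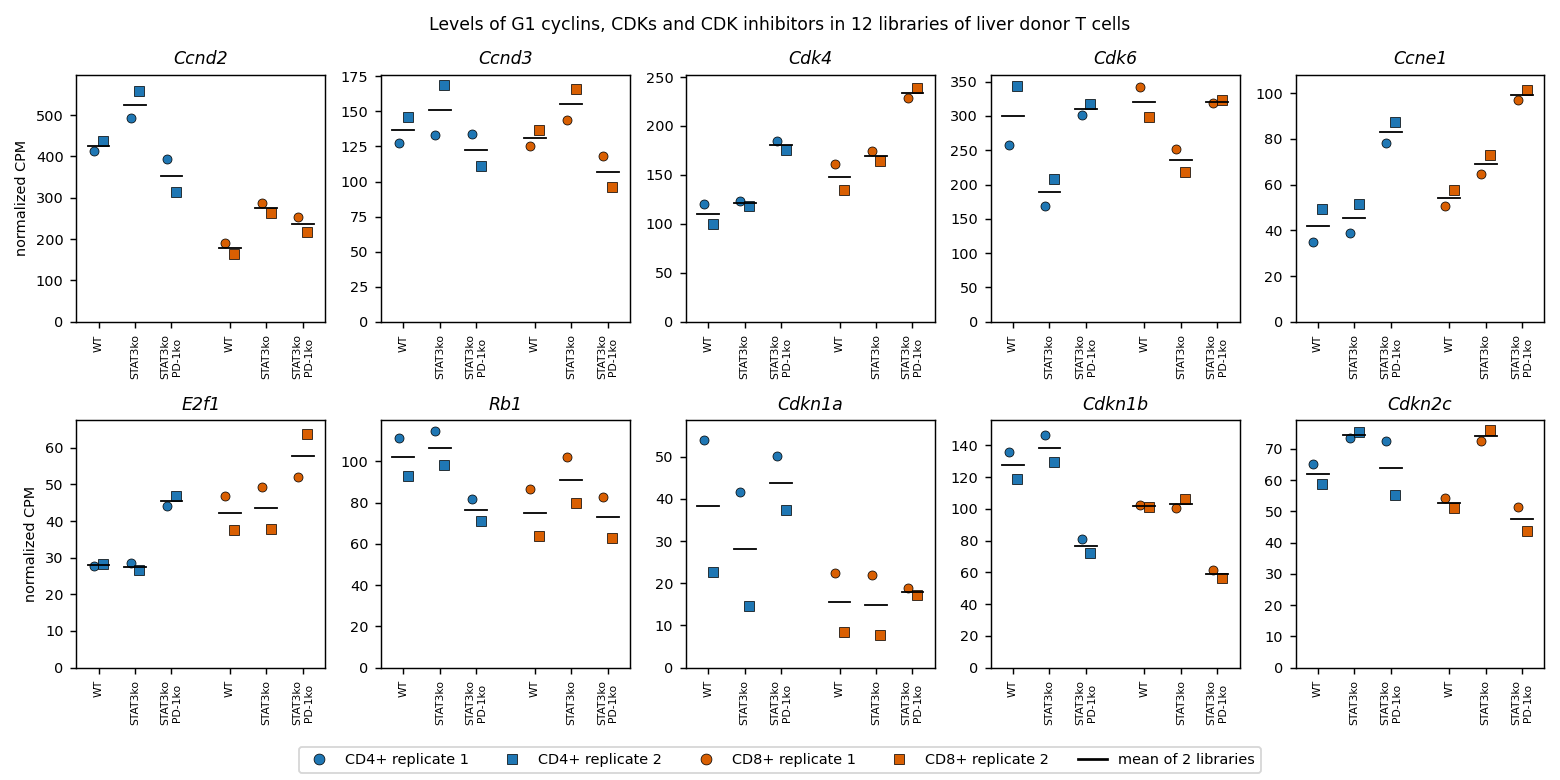
Level of each of the 10 members in every library, in CPM on a linear axis from 0, with 1 point per library and a bar at the mean of the 2 libraries of a group. Cdk4 and Ccne1 lie highest in STAT3ko PD-1ko in both subsets and Cdkn1b lowest, and the 2 libraries of WT and of STAT3ko lie far apart for Cdkn1a.

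The first question was what the loss of STAT3 alone did to these genes in cells under alloreactive stimulation. Cdk6 was the member with the lowest levels relative to WT in both subsets. It was at 258 and 343 CPM in WT CD4+ T cells and 169 and 208 in STAT3ko, and at 342 and 299 in WT CD8+ T cells and 252 and 218 in STAT3ko. The groups did not overlap in either subset, nor did they for 38.2% of all genes tested in CD4+ or for 43.6% in CD8+ T cells. The log2 difference was -0.67 (SE 0.191) in CD4+ and -0.45 (SE 0.119) in CD8+ T cells, and neither passed the adjusted threshold (adjusted p = 0.251 and 0.292, edgeR). Within replicate 1 and replicate 2 the differences were -0.61 and -0.72 in CD4+ and -0.44 and -0.45 in CD8+ T cells. With the replicate number as a block the CD4+ difference was called (-0.66, adjusted p = 0.0363, edgeR), as were 2.53% of all genes. The CD8+ difference was not called with the block. No source states that the number pairs the genotypes.

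Both STAT3ko CD8+ libraries lay above both WT CD8+ libraries for 5 members, none of which passed the adjusted threshold. The groups did not overlap, in either direction, for 43.6% of all genes tested in CD8+ T cells. Of the 5 members, 3 (Ccnd2, Cdkn2c, and Ccne1) had an unadjusted p under 0.05. Ccnd2 was at 189.6 and 165 CPM in WT and 288 and 263 in STAT3ko, a log2 difference of 0.63 (SE 0.128, adjusted p = 0.213, edgeR). DESeq2, a second count model, called this difference (adjusted p = 0.00381). Cdkn2c was at 54.2 and 51.2 CPM in WT and 72.6 and 75.9 in STAT3ko, a log2 difference of 0.49 (adjusted p = 0.277, edgeR), and Ccne1 differed by 0.34 (adjusted p = 0.411, edgeR). The others were Ccnd3 and Cdk4, at 0.24 and 0.19 (adjusted p = 0.609 and 0.630, edgeR). In CD4+ T cells the first 3 differed by 0.31 (Ccnd2), 0.27 (Cdkn2c), and 0.11 (Ccne1), with adjusted p of 0.581, 0.687, and 0.927 (edgeR). The values were thus positive for the inhibitor p18 as well as for the cyclins.

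As compared with WT, 0 of the 10 members were called in STAT3ko CD4+ and 0 in STAT3ko CD8+ T cells by edgeR at an adjusted p under 0.05. At an unadjusted p under 0.05 the counts were 1 (Cdk6, lower) and 4 (Cdk6, lower, and Ccnd2, Cdkn2c, and Ccne1, higher). DESeq2 called 0 and 1 (Ccnd2), and edgeR with the replicate number as a block called 1 (Cdk6) and 0. Among all genes tested, 0.334% were called in CD4+ and 0.0583% in CD8+ T cells, while 5.28% and 6.01% had an unadjusted p under 0.05 with higher and 5.25% and 4.95% with lower values in STAT3ko. The 0 is therefore close to what nearly all genes showed in this comparison. For E2f1, Rb1, Cdkn1a, and Cdkn1b the groups overlapped in both subsets, with log2 differences between -0.45 and 0.27.

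STAT3ko PD-1ko T cells differed from WT in Cdk4, Ccne1, and Cdkn1b, and in CD4+ T cells also in E2f1. In CD4+ T cells Cdk4, Ccne1, and E2f1 rose and Cdkn1b fell, so that 4 of 10 members were called. CD8+ T cells had 3 of 10 called, as Cdk4 and Ccne1 rose and Cdkn1b fell. Of all genes tested 12.9% were called in CD4+ and 17.2% in CD8+ T cells, by direction 7.21% and 9.01% higher and 5.65% and 8.21% lower. In bulk samples a larger share of cells that carry a transcript and more of it per cell cannot be told apart, and this holds for every level given here.

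Cdk4, the kinase partner of the D-type cyclins, lies on chromosome 10 (127063535 to 127067288, plus strand, mm10). It was at 120.1 and 99.8 CPM in WT CD4+ T cells, 124 and 118 in STAT3ko, and 185 and 176 in STAT3ko PD-1ko. Those in CD8+ T cells were 161 and 135, 174 and 164, and 228 and 239 CPM. Both STAT3ko PD-1ko libraries lay above all libraries of the other genotypes in each subset. Between STAT3ko PD-1ko and WT the groups did not overlap for 59.2% of all genes in CD4+ and 59.7% of those in CD8+ T cells. From WT to STAT3ko PD-1ko Cdk4 rose 1.67-fold in CD4+ T cells (log2 0.74, SE 0.148, adjusted p = 0.0205, edgeR) and 1.59-fold in CD8+ T cells (log2 0.67, SE 0.124, adjusted p = 0.0147, edgeR). Ordered by group mean, STAT3ko PD-1ko CD8+ T cells came first, followed by STAT3ko PD-1ko CD4+, STAT3ko CD8+, WT CD8+, STAT3ko CD4+, and WT CD4+, and of these neighbours the last pair alone overlapped.

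Because Cdk4 was the most abundant member and rose in both subsets, the 250 bases before its start are shown, from RefSeq on GRCm38.p6, and beside them a stretch upstream of Cdk6, whose difference between the same groups was 0.06 and 0.01 (log2) and was not called. Capitals mark CACGTG (the E-box letters bound by MYC and related factors, which read the same on both strands) and, in Cdk6, a match to TTTNNCGC, letters used as E2F-like, searched on both strands. The E2F-like letters were fixed with the design, and CACGTG was added after the data had been seen.
Cdk4 (chr10:127063285-127063534, plus strand): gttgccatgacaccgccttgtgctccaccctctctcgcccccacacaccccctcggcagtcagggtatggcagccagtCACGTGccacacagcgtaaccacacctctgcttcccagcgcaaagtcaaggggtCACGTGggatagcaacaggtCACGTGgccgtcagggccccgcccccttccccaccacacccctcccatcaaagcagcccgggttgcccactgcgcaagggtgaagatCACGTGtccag
Cdk6 (chr5:3343643-3343712, plus strand): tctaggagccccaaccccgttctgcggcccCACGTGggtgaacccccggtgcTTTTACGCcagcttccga

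The Cdk4 window holds CACGTG 4 times, starting at bases -172, -118, -98, and -11 counted from the gene start. Of 32851 windows of 300 bases in the RefSeq table (250 before and 50 after a start), 7.15% hold CACGTG at least once and 8 windows (0.0244%) hold it 4 times or more. The Cdk6 window holds it once, at -220, and the E2F-like match at -198, where 5.17% of all windows hold the latter letters. No other member's window holds the E2F-like letters, those of Cdk4, Ccne1, and E2f1 among them. Of the 10 members 8 have windows in the table (11 windows), and the other two are Ccnd2 and Rb1. A further CACGTG stands at +35 of the second Cdkn2c window. The forkhead letters GTAAACA (3.65% of all windows, both strands) were found in a Ccnd3 window at -243, as TGTTTAC, and the STAT-like letters TTCNNNGAA (8.3%, the same on both strands) in no member's window. These are matches of letters and not measured binding sites. The RefSeq starts of the E2f1 window and of the second Cdkn2c window lie 466 and 1384 bases inside the deposited gene models. Those of the second Ccnd3 and Cdkn1a windows lie 88416 and 2790 bases inside them. The letters of these windows were thus read from other starts than those of the counts.

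Myc, whose product binds CACGTG, was not a member and is named here after its values were seen. It was at 77.5 and 65.9 CPM in WT CD4+ and 97.8 and 56.7 in STAT3ko PD-1ko CD4+ T cells, and at 69.0 and 49.8 in WT CD8+ and 98.3 and 56.0 in STAT3ko PD-1ko CD8+ T cells. The groups overlapped in both subsets, and the difference was not called (adjusted p = 0.839 and 0.480, edgeR). By replicate number, which no source says pairs the genotypes, Myc was higher in STAT3ko PD-1ko in both replicates of CD8+ T cells. In CD4+ T cells it was higher in replicate 1 and lower in replicate 2. These values are of RNA alone. The study reported Myc protein in liver T cells as lower in STAT3ko than in WT and unaffected in STAT3ko PD-1ko, and MYC target activity as higher in the latter.

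Ccne1, the cyclin that activates CDK2 at the end of G1, had the largest fold change of the members from WT to STAT3ko PD-1ko. Its levels were 34.7 and 49.4 CPM in WT CD4+ T cells, 39.0 and 51.5 in STAT3ko, and 78.0 and 87.6 in STAT3ko PD-1ko. The CD8+ values were 50.6 and 57.8, 64.8 and 72.9, and 96.8 and 101 CPM. The libraries of STAT3ko PD-1ko were above all others of their subset. The change was 2.00-fold in CD4+ T cells (log2 1.00, SE 0.228, adjusted p = 0.0306, edgeR) and 1.84-fold in CD8+ T cells (log2 0.88, SE 0.131, adjusted p = 0.00856, edgeR).

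E2f1, a factor released by RB that in turn activates Ccne1, was at 27.7 and 28.2 CPM in WT CD4+ T cells, 28.4 and 26.6 in STAT3ko, and 44.2 and 47.0 in STAT3ko PD-1ko. The 4 WT and STAT3ko libraries lay between 26.6 and 28.4 CPM, below both STAT3ko PD-1ko libraries, and the rise from WT was 1.66-fold (log2 0.73, SE 0.148, adjusted p = 0.0213, edgeR). CD8+ T cells held E2f1 at 46.9 and 37.6 CPM in WT, 49.2 and 37.7 in STAT3ko, and 51.9 and 63.8 in STAT3ko PD-1ko. There the difference from WT was 0.47 (log2, SE 0.186) and was not called (adjusted p = 0.127, edgeR). It was 0.15 within replicate 1 and 0.76 within replicate 2, and 0.30 to 0.62 with 1 library left out.

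Cdkn1b, the gene of p27, moved the other way. It was at 136 and 119 CPM in WT CD4+ T cells, 147 and 129.6 in STAT3ko, and 81.2 and 72.3 in STAT3ko PD-1ko. Among CD8+ libraries it was at 103 and 101, 100.4 and 106, and 61.4 and 56.4 CPM. The WT and STAT3ko libraries overlapped within each subset, and all of them were above the STAT3ko PD-1ko libraries. From WT to STAT3ko PD-1ko it fell by 0.71 on the log2 scale in CD4+ (SE 0.151, adjusted p = 0.0245, edgeR) and by 0.78 in CD8+ T cells (SE 0.113, adjusted p = 0.00799, edgeR). Within replicate 1 and replicate 2 the differences were -0.74 and -0.72 in CD4+ and -0.74 and -0.84 in CD8+ T cells.

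The other inhibitors and Rb1 were not called in this comparison. Cdkn2c was at 65.2 and 58.8 CPM in WT CD4+ and 72.7 and 55.2 in STAT3ko PD-1ko CD4+ T cells, and at 54.2 and 51.2 in WT CD8+ and 51.4 and 43.7 in STAT3ko PD-1ko CD8+ T cells, with overlap in both subsets (adjusted p = 0.839 and 0.488, edgeR). Rb1 was at 111 and 92.7 CPM in WT CD4+ T cells and 81.7 and 71.2 in STAT3ko PD-1ko, a log2 difference of -0.39 with no overlap (adjusted p = 0.158, edgeR), and it differed by -0.03 in CD8+ T cells. The D-type cyclins were not called by edgeR. Ccnd2 differed by -0.25 in CD4+ and 0.42 in CD8+ T cells (adjusted p = 0.360 and 0.0633, edgeR), of which DESeq2 called the latter (0.41, adjusted p = 0.0312). Ccnd3 differed by -0.14 and -0.28 (adjusted p = 0.670 and 0.226, edgeR). Cdk6 was at 301 and 318 CPM in STAT3ko PD-1ko CD4+ and 319 and 324 in STAT3ko PD-1ko CD8+ T cells, within the range of WT.

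In both subsets 3 members (Cdk4, Ccne1, and Cdkn1b) were called in the same direction, as were 8.59% of the 11691 genes tested in both. Most of these calls needed both libraries of a group. Of the CD4+ calls 0 were left without WT replicate 1, without STAT3ko PD-1ko replicate 1, or without STAT3ko PD-1ko replicate 2, and 1 (that of Ccne1) without WT replicate 2. The calls over all genes fell at the same time from 1538 to 676, 147, 62, and 575. Among CD8+ T cells 3 members were called without WT replicate 1, 2 (Ccne1 and Cdkn1b) without STAT3ko PD-1ko replicate 1 or WT replicate 2, and 0 without STAT3ko PD-1ko replicate 2, where all genes fell from 2066 to 111. A group left with 1 library was assumed to vary like the others. The estimates moved less than the calls: over these fits the log2 change of Cdk4 was 0.61 to 0.86 in CD4+ and 0.54 to 0.79 in CD8+ T cells, that of Ccne1 0.76 to 1.28 and 0.78 to 0.97, and that of Cdkn1b -0.80 to -0.62 and -0.86 to -0.73.

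**Figure D2:**
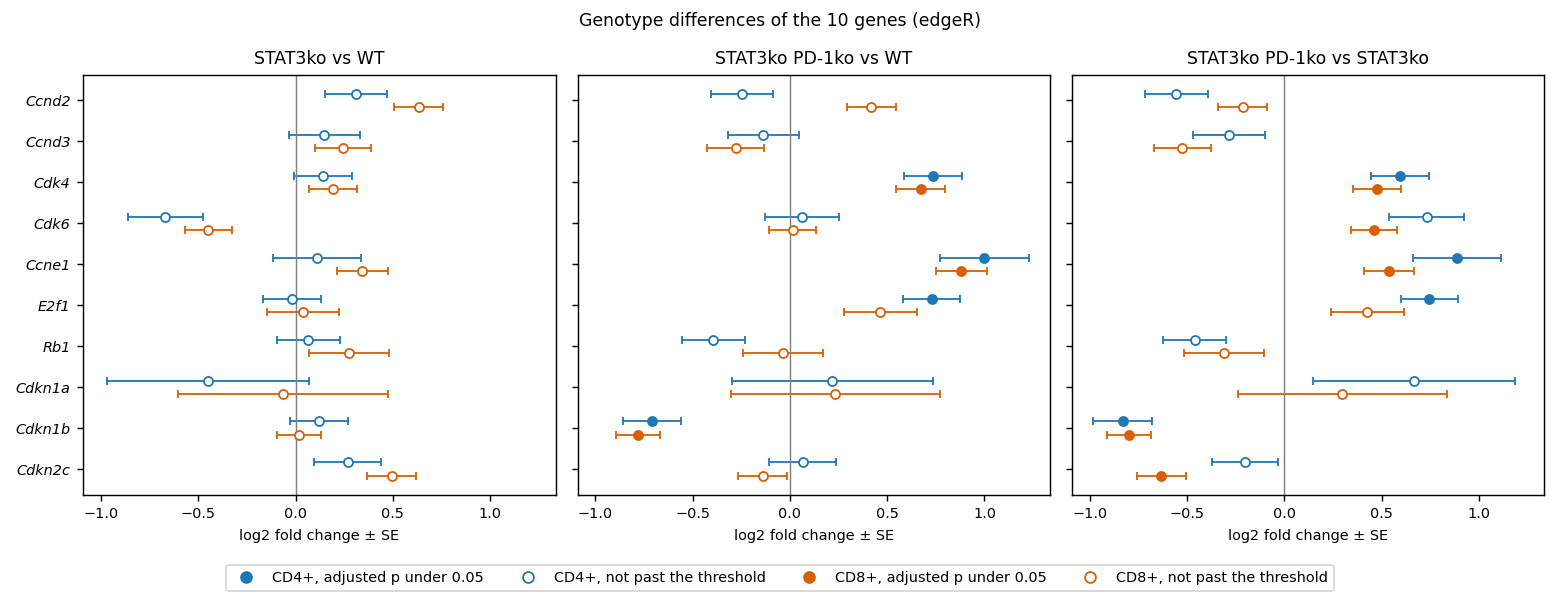
Log2 fold change of each member between genotypes in CD4+ and CD8+ T cells, with bars of 1 SE from edgeR and filled points where the adjusted p was under 0.05. Cdk4 and Ccne1 lie to the right and Cdkn1b to the left of 0 in the comparisons with STAT3ko PD-1ko in both subsets, and no member is filled in STAT3ko against WT.

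The comparison of STAT3ko PD-1ko with STAT3ko asks what changed with the loss of PD-1 where Stat3 was targeted in both groups. It shares its STAT3ko PD-1ko libraries with the comparison above, so the calls of the 2 comparisons are not independent. Stat3 RNA itself was higher in STAT3ko PD-1ko than in STAT3ko, by 0.33 in CD4+ and 0.47 in CD8+ T cells (log2). This difference was not called (adjusted p = 0.353 and 0.141, edgeR), and its part in the results below was not tested. From STAT3ko to STAT3ko PD-1ko, Cdk4 (log2 0.59, adjusted p = 0.0444), Ccne1 (0.89, adjusted p = 0.0479), and E2f1 (0.75, adjusted p = 0.0249) rose and Cdkn1b fell by 0.83 (adjusted p = 0.0198, edgeR) in CD4+ T cells. Among CD8+ libraries Cdk4 (0.48, adjusted p = 0.0404), Cdk6 (0.46, adjusted p = 0.0406), and Ccne1 (0.54, adjusted p = 0.0340) rose, and Cdkn1b fell by 0.80 (adjusted p = 0.00818) and Cdkn2c by 0.63 (adjusted p = 0.0198, edgeR). That is 4 of 10 members in CD4+ and 5 of 10 in CD8+ T cells, where 11.1% and 16.8% of all genes were called. In the same comparison 0 of the 11 T cell markers fell in CD4+ and 5 in CD8+ T cells (Cd8b1, Cd8a, Cd2, Cd247, and Lck), against 5.03% and 8.05% of all genes. Cd68 and Cd79b also fell in CD8+ T cells (by 0.63 and 1.23), and the hepatocyte marker Trf rose there, from 0.647 and 0.695 to 1.72 and 2.69 CPM. Their part in these results was not tested.

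The members called here and not against WT were Cdk6 and Cdkn2c in CD8+ T cells. Cdk6 in CD8+ T cells was at 252 and 218 CPM in STAT3ko and 319 and 324 in STAT3ko PD-1ko, so that the latter lay within the WT range. The same gene in CD4+ T cells differed by 0.73 and missed the threshold (adjusted p = 0.0505, edgeR), while DESeq2 called it (adjusted p = 0.00684). Cdkn2c in CD8+ T cells was at 72.6 and 75.9 CPM in STAT3ko and 51.4 and 43.7 in STAT3ko PD-1ko. Ccnd3 in CD8+ T cells was at 144 and 166 CPM in STAT3ko and 118 and 95.9 in STAT3ko PD-1ko, a difference of -0.52 just short of the threshold (adjusted p = 0.0502, edgeR), which DESeq2 called (adjusted p = 0.00902). Ccnd2 in CD4+ T cells differed by -0.55 (adjusted p = 0.0663, edgeR, and 0.0204, DESeq2).

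As above, each call was lost in at least 1 of the fits with 1 library left out. For CD4+ T cells 0 members were called without STAT3ko PD-1ko replicate 1 or replicate 2, 2 without STAT3ko replicate 2, and 3 without STAT3ko replicate 1. For CD8+ T cells 0 were called without STAT3ko PD-1ko replicate 2, 1 without either STAT3ko library, and 2 without STAT3ko PD-1ko replicate 1. The calls over all genes fell as well, in CD4+ T cells from 1324 to 66 and 0 without STAT3ko PD-1ko replicate 1 and replicate 2, and in CD8+ T cells from 2017 to 2 without STAT3ko PD-1ko replicate 2. Cdkn1b kept its call in 5 of the 6 fits with 1 CD8+ library left out. Cdk4 in CD4+ T cells kept it in 0 of 6, and its adjusted p was between 0.0570 and 0.226 over them. It also missed the threshold with only the 4 libraries compared (adjusted p = 0.0509, edgeR), as did Cdk6 in CD8+ T cells with limma on log2(RPKM + 1) (adjusted p = 0.0506).

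The kinase and its inhibitor were also set against each other within each library. On the RPKM scale the ratio of Cdk4 to Cdkn1b was 1.50 and 1.42 in WT CD4+ T cells, 1.43 and 1.54 in STAT3ko, and 3.85 and 4.12 in STAT3ko PD-1ko. In CD8+ T cells it was 2.65 and 2.25, 2.94 and 2.61, and 6.30 and 7.17. The WT and STAT3ko libraries overlapped in each subset, and the STAT3ko PD-1ko libraries lay above them. Since the ratio combines genes tested above, it is given with no test, and an exact permutation test of 2 libraries against 2 could not go below p = 0.333.

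The share of Cdk6 in the RPKM of Cdk4 and Cdk6 together followed another order. It was 20.9% and 29.7% in WT CD4+ T cells, 14.4% and 17.8% in STAT3ko, and 16.8% and 18.2% in STAT3ko PD-1ko. In CD8+ T cells it was 20.8% and 21.5%, 15.1% and 14.1%, and 14.7% and 14.3%. Every knockout library lay below every WT library of its subset, with lower Cdk6 in STAT3ko and higher Cdk4 in STAT3ko PD-1ko. The share of Ccnd2 among the D-type cyclins was 52.5% to 59.2% in the 6 CD4+ libraries and 32.1% to 47.0% in the 6 CD8+ libraries. In CD8+ T cells its group mean was 34.7% ± 3.61 (SD, n = 2) in WT, 41.1% ± 4.07 in STAT3ko, and 46.3% ± 0.965 in STAT3ko PD-1ko, and STAT3ko PD-1ko lay above the libraries of the other genotypes.

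**Figure D3:**
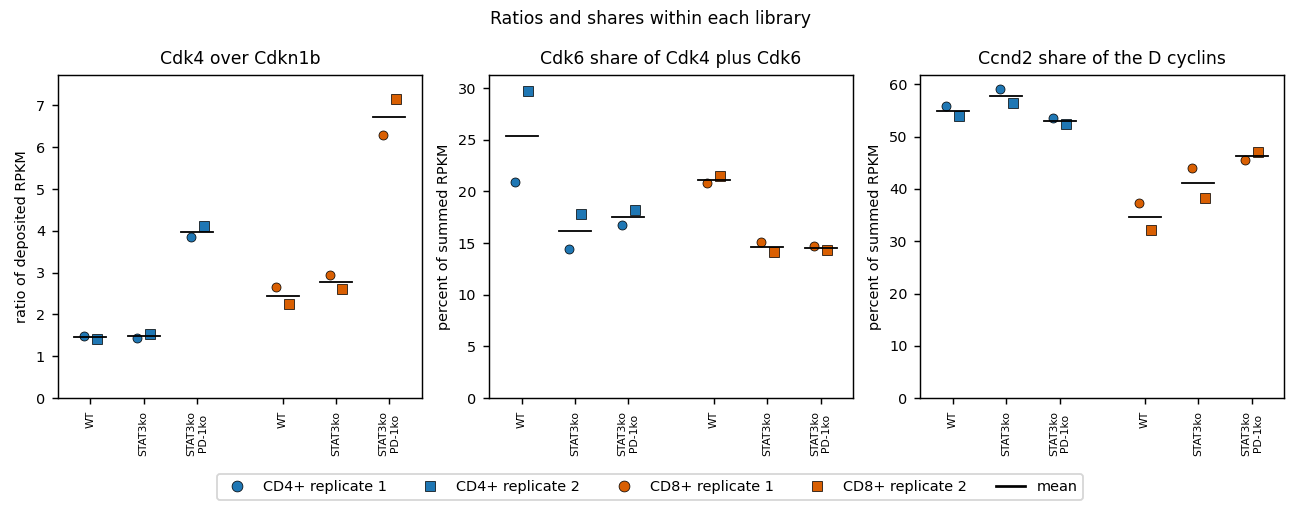
Ratio of Cdk4 to Cdkn1b, share of Cdk6 in Cdk4 plus Cdk6 (%), and share of Ccnd2 among D-type cyclins (%), each from deposited RPKM with 1 point per library and a bar at the group mean. The Cdk4 to Cdkn1b ratio of STAT3ko PD-1ko lies at 3.85 to 4.12 in CD4+ and 6.30 to 7.17 in CD8+ T cells, above all other libraries of the subset.

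The subsets themselves differed in their D-type cyclin. Ccnd2 was at 414 and 437 CPM in WT CD4+ against 189.6 and 165 in WT CD8+ T cells, at 492 and 559 against 288 and 263 in STAT3ko, and at 393 and 314 against 254 and 217 in STAT3ko PD-1ko. All CD4+ libraries lay above all CD8+ libraries, and between the subsets of 1 genotype 48.1% (WT), 47.5% (STAT3ko), and 46.5% (STAT3ko PD-1ko) of all genes likewise did not overlap. The difference of CD8+ from CD4+ T cells was -1.26 (log2, SE 0.147, adjusted p = 5.34e-04) in WT, -0.93 (SE 0.146, adjusted p = 0.00333) in STAT3ko, and -0.59 (SE 0.146, adjusted p = 0.0535) in STAT3ko PD-1ko (edgeR). With the pool of livers as a block, the last was also called (-0.58, adjusted p = 0.00782, edgeR), as it was by DESeq2 (adjusted p = 0.00740). The calls in WT and STAT3ko held in each of 12 fits with 1 library left out. Ccnd3 overlapped between the subsets in every genotype.

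From WT to STAT3ko PD-1ko the level of Ccnd2 was lower in CD4+ and higher in CD8+ T cells in both libraries. Tested as an interaction, the change in CD8+ minus the change in CD4+ T cells was 0.68 (log2, SE 0.205, unadjusted p = 0.00795) and was not called (adjusted p = 0.520, edgeR). No member was called in any of the 3 interactions, and the count at an unadjusted p under 0.05 was 1 (this one) for STAT3ko PD-1ko against WT and 0 for each of the other two, where 4.43%, 1.85% (STAT3ko against WT), and 3.59% (STAT3ko PD-1ko against STAT3ko) of all genes reached it. DESeq2 also called 0 members. Over all genes edgeR called 1 (0.00811%) for STAT3ko PD-1ko against WT and 0 for each of the others. For STAT3ko PD-1ko against WT this count was 84 with the pool as a block and 75 with DESeq2. It was 50 with all genes of at least 1 count and 46 with limma on log2(RPKM + 1). These fits called 0 members, so the changes of the members described above are not shown to differ between the subsets.

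Beside Ccnd2, E2f1 was higher in CD8+ than in CD4+ T cells in WT (log2 0.60, adjusted p = 0.0497) and in STAT3ko (0.66, adjusted p = 0.0354), and Cdk4 in STAT3ko (0.48, adjusted p = 0.0447, edgeR). This makes 2 members called in WT, 3 in STAT3ko, and 0 in STAT3ko PD-1ko, where 10.5%, 9.62%, and 4.14% of all genes were called. In STAT3ko PD-1ko, 4 members had an unadjusted p under 0.05, as had 14.7% of all genes, and DESeq2 called 1 (Ccnd2). The Cdk4 call in STAT3ko was lost with all genes of at least 1 count (adjusted p = 0.0593, edgeR), and that of E2f1 in WT with at least 10 counts in every library or with limma (adjusted p of 0.0526 to 0.0682). The E2f1 call in WT was lost (1 member called) without any 1 of the 6 CD4+ libraries, WT CD8+ replicate 1, or WT CD8+ replicate 2. In STAT3ko the count was 1 without either STAT3ko CD4+ library, either STAT3ko PD-1ko CD4+ library, or STAT3ko CD8+ replicate 1, and 4 without either WT CD4+ library.

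The CD4+ and CD8+ T cells of a number came from the same pooled livers, so the subsets can also be compared within a pool. With the pool as a block, 7 members were called in WT, 6 in STAT3ko, and 5 in STAT3ko PD-1ko, where 24.3%, 24.9%, and 14.4% of all genes were called. The largest addition was Cdkn1a, the gene of p21, whose log2 difference of CD8+ from CD4+ T cells was -1.33, -0.91, and -1.27 (adjusted p = 9.69e-05, 7.92e-04, and 2.26e-04, edgeR with the pool as a block). Cdkn1b was lower in CD8+ T cells in all 3 genotypes (adjusted p = 0.0397, 0.0130, and 0.0317) and Cdkn2c in STAT3ko PD-1ko (-0.42, adjusted p = 0.0138, edgeR with the block). Cdk4 was higher in CD8+ T cells in WT and STAT3ko PD-1ko (0.43 and 0.37, adjusted p = 0.00472 and 0.0138), Ccne1 in WT and STAT3ko (0.38 and 0.61, adjusted p = 0.0326 and 0.00415), and Rb1 was lower in WT (-0.45, adjusted p = 0.00825, edgeR with the block).

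Cdkn1a was the member that varied most with the replicate number. In CD4+ T cells it was at 54.0 and 22.7 CPM in WT, 41.6 and 14.5 in STAT3ko, and 50.2 and 37.5 in STAT3ko PD-1ko. In CD8+ T cells it was at 22.5 and 8.55, 21.9 and 7.81, and 18.9 and 17.2 CPM. The replicate 1 library was above the replicate 2 library in 6 of 6 groups, by 0.13 to 1.52 on the log2 scale with a median of 1.31. Rb1 was also above in 6 of 6 (median 0.31) and Ccne1 below in 6 of 6 (median -0.18), as were 9.68% of all genes above in all 6 groups and 19.8% above or below. The facility numbers in the labels form 1 run for replicate 1 and another for replicate 2, and whether they mark a shared day is not given. For Cdkn1a the difference of STAT3ko PD-1ko from WT went opposite ways in the replicates, at -0.10 and 0.72 in CD4+ and -0.25 and 1.00 in CD8+ T cells, and was not called (adjusted p = 0.823 and 0.799, edgeR). Its difference from STAT3ko was 0.27 and 1.36 in CD4+ and -0.21 and 1.13 in CD8+ T cells. Between STAT3ko and WT it was negative in both replicates, at -0.37 and -0.65 in CD4+ and -0.04 and -0.13 in CD8+ T cells.

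The genes whose levels ran most like each member over the 12 libraries were listed by Pearson's r of log2 CPM among 12333 genes. They are descriptions, as the libraries share genotypes, subsets, and pools. Closest to Ccne1 was Fanca (r = 0.995), a gene of DNA crosslink repair, and closest to Cdk4 were Tln2 (0.991) and Nup85 (0.988), the latter a nuclear pore component. E2f1 ran with Tubg1 (0.989), which encodes gamma-tubulin, and Mthfd1l (0.985), an enzyme of mitochondrial folate metabolism. Cdkn1b ran with Clcn4 (0.993) and Kdm7a (0.983), Ccnd2 with Rxra (0.979) and Tmem154 (0.978), and Cdkn1a with Rilpl2 (0.977) and Hif1a (0.945). For the rest the closest genes were Elf4 for Ccnd3 (0.966), Rrp1b for Cdk6 (0.941), Arfgef1 for Rb1 (0.954), and Scrn3 for Cdkn2c (0.943).

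Around the 10 members, S phase genes listed as under E2F control moved in the direction of Cdk4 and Ccne1. The list was chosen with earlier results of these data known, and the activity of E2F was not measured. Of 26 S phase genes under E2F control, 23 rose in STAT3ko PD-1ko CD4+ T cells as compared with WT and 19 in CD8+ T cells, and 0 fell. Their median log2 change was 1.04 and 0.70, against -0.01 and -0.000618 over all genes, of which 7.21% and 9.01% were called higher. The largest changes were those of Gins1 (log2 1.43, adjusted p = 0.00866), a replication helicase subunit, and the uracil glycosylase Ung (1.41, adjusted p = 0.00491) in CD4+, and of Ung (1.02, adjusted p = 0.0210) and the replication factor Mcm10 (1.00, adjusted p = 0.00438) in CD8+ T cells (edgeR). Of 20 genes of G2 and M phase, 13 rose in CD4+ (median 0.92) and 9 in CD8+ T cells (median 0.45), with the spindle checkpoint kinase genes Bub1b (1.10 and 0.68) and Bub1 (1.06 and 0.69) changing most. Without STAT3ko PD-1ko replicate 2 the S phase counts were 0 in CD4+ and 1 in CD8+ T cells, and without replicate 1 they were 3 and 8. Without WT replicate 2 they were 7 and 4, and without WT replicate 1 they were 21 and 19. The G2 and M phase counts dropped in the same fits to 0, 0, 5, and 11 in CD4+ and 0, 0, 0, and 5 in CD8+ T cells.

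In STAT3ko as compared with WT, 0 of the S phase and 0 of the G2 and M phase genes were called in either subset by edgeR. The values were nevertheless nearly all positive. In CD8+ T cells 25 of 26 S phase genes and 20 of 20 G2 and M phase genes were positive. Their medians were 0.28 and 0.46, against -0.01 over all genes. The CD4+ counts were 24 of 26 and 20 of 20, with medians of 0.22 and 0.35, against 0.01 over all genes. At an unadjusted p under 0.05 there were 9 and 17 in CD8+ and 0 and 6 in CD4+ T cells, all of them higher. Over all genes 6.01% (CD8+) and 5.28% (CD4+) had an unadjusted p under 0.05 with higher values. DESeq2 called 1 and 4 in CD8+ and 0 and 0 in CD4+ T cells, where it called 218 and 271 of all genes. From STAT3ko to STAT3ko PD-1ko, 19 of 26 S phase genes rose in CD4+ and 10 in CD8+ T cells, against 6.05% and 8.76% of all genes. Without STAT3ko PD-1ko replicate 1 the counts were 0 and 3, without STAT3ko PD-1ko replicate 2 they were 0 and 0, without STAT3ko replicate 2 they were 10 and 0, and without STAT3ko CD8+ replicate 1 the CD8+ count was 3. The G2 and M phase genes gave 5 and 0 rises (in CD4+ T cells 0 without STAT3ko PD-1ko replicate 1, STAT3ko PD-1ko replicate 2, or STAT3ko replicate 2, and 1 without STAT3ko replicate 1), with the CD8+ values split 10 positive and 10 negative. Tested as interactions by edgeR, 0 of the 26 S phase genes were called for STAT3ko PD-1ko against WT or STAT3ko. The change in CD8+ minus that in CD4+ T cells was negative in all 26 (medians -0.36 and -0.38). At an unadjusted p under 0.05 there were 2 and 7, against 4.43% and 3.59% of all genes. For the 20 G2 and M phase genes it was also negative in all, with 0 called and 4 and 8 at an unadjusted p under 0.05. CD8+ T cells exceeded CD4+ T cells in 16 of the 26 S phase genes in WT, 18 in STAT3ko, and 0 in STAT3ko PD-1ko, where 7 had an unadjusted p under 0.05 and DESeq2 called 2. Of all genes 4.91%, 4.81%, and 1.65% were higher. With the pool as a block the counts were 24, 24, and 12, against 11.2%, 12.1%, and 5.89% of all genes. The count in WT was 4 without WT CD4+ replicate 2 or WT CD8+ replicate 1, and that in STAT3ko was 6 without STAT3ko CD4+ replicate 2 or STAT3ko CD8+ replicate 1 and 10 without STAT3ko CD8+ replicate 2.

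Among the other pocket proteins, E2F factors, and their partners, 6 of 18 rose in STAT3ko PD-1ko CD4+ T cells as compared with WT and 7 in CD8+ T cells (medians 0.46 and 0.33), and 0 fell. The background for this list and the next was 7.21% (CD4+) and 9.01% (CD8+) of all genes called higher, and 5.65% and 8.21% lower. Within this list the largest changes were in E2f8 (1.18 and 0.79), a repressor of the family, and Mybl2 (1.17 and 0.93), a partner in late cell cycle transcription. Of 6 other G1 cyclins and CDKs tested, 2 rose in CD4+ and 3 in CD8+ T cells. They included the CDK-activating phosphatase Cdc25a (0.87 in each subset) and Cdk2, the partner of cyclin E (0.63 in CD4+). The E-type cyclin Ccne2 rose by 0.79 in CD8+ T cells (adjusted p = 0.0474, edgeR). Over 14 other settings, among them leaving out each library, the log2 change of Ccne2 was 0.41 to 1.07. Without WT replicate 1, STAT3ko PD-1ko replicate 1, WT replicate 2, and STAT3ko PD-1ko replicate 2 in turn, the first list had 1, 1, 3, and 0 calls in CD4+ and 3, 4, 0, and 0 in CD8+ T cells. The second list had 0 in each of these fits in CD4+ T cells and 1, 0, 0, and 0 in CD8+ T cells.

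Of 13 other CDK inhibitors and genes of their turnover, 3 rose in CD4+ T cells, and 4 rose and 1 fell in CD8+ T cells. Over all genes 7.21% were called higher in CD4+ T cells, and 9.01% higher and 8.21% lower in CD8+ T cells. Skp2, which marks p27 for degradation, was at 8.64 and 8.98 CPM in WT and 15.4 and 19.1 in STAT3ko PD-1ko CD4+ T cells, and rose by 0.99 on the log2 scale (adjusted p = 0.0293, edgeR). Cdkn2a, the gene of p16 and p19ARF, was low throughout. It was at 1.64 and 1.95 CPM in WT CD4+ and 7.05 and 7.98 in STAT3ko PD-1ko CD4+ T cells, and at 1.87 and 1.76 in WT CD8+ and 4.29 and 5.27 in STAT3ko PD-1ko CD8+ T cells. It rose by 2.09 and 1.41 (adjusted p = 0.00539 and 0.0157, edgeR), so that an inhibitor gene rose together with Cdk4. Cdkn2d, an INK4 relative of Cdkn2c, fell from 86.9 and 85.5 CPM in WT CD8+ to 44.7 and 46.3 in STAT3ko PD-1ko CD8+ T cells (log2 -0.91, adjusted p = 0.00493, edgeR). In the same 4 fits the list had 1, 1, 1, and 0 calls in CD4+ and 2, 2, 1, and 0 in CD8+ T cells.

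**Figure D4:**
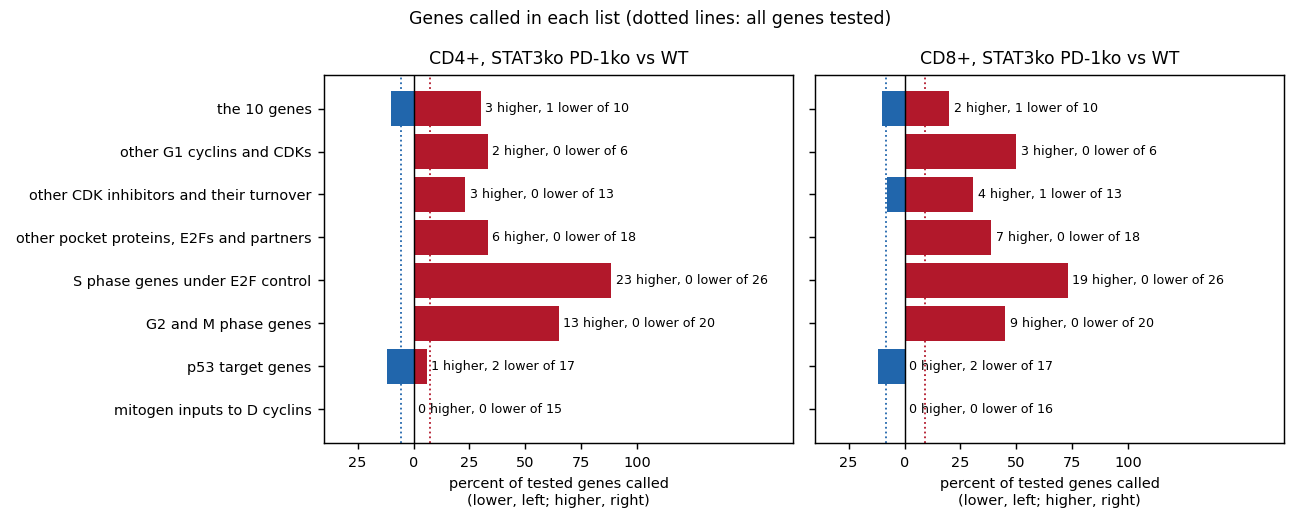
Share of genes called higher (right of 0) and lower (left of 0) by edgeR at an adjusted p under 0.05 in each gene list, as a percent of its tested genes, for STAT3ko PD-1ko against WT in CD4+ and CD8+ T cells, with dotted lines at the percent of all genes called in each direction. The S phase list has 23 genes higher in CD4+ and 19 in CD8+ T cells, of 26, and 0 lower, and the mitogen inputs have no call.

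The p53 target genes, of which Cdkn1a is a classic member, had a share of calls near that of all genes. Of 17 tested, 1 rose and 2 fell in CD4+ and 0 rose and 2 fell in CD8+ T cells (medians -0.21 and -0.16), where 12.9% and 17.2% of all genes were called. The genes with the largest changes were Phlda3 (1.10, adjusted p = 0.0473) and the death receptor Fas (-1.05, adjusted p = 0.0222) in CD4+, and Fas (-1.37, adjusted p = 0.0215) and Trp53inp1 (-1.16, adjusted p = 0.00604) in CD8+ T cells (edgeR). In the 4 fits named above, 0, 0, 1, and 0 were called in CD4+ and 2, 2, 1, and 1 in CD8+ T cells. Of the mitogen inputs to the D-type cyclins (15 tested in CD4+ and 16 in CD8+ T cells), 0 were called in either subset by edgeR, with 7 and 5 at an unadjusted p under 0.05 (28.7% and 34.0% of all genes) and 2 and 1 called by DESeq2.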

How the data were processed

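Bulk RNA was measured in 12 libraries of sorted liver donor T cells, 2 per group, with genotype and subset taken from their titles. Per the supplemental methods, 51-base single-end reads from a stranded kit were aligned with STAR to mm10 and counted per RefSeq gene with HTSeq-count. The deposited counts are not normalized. The RPKM values deposited by the authors divide counts by exon length and library size, and the exon lengths deposited beside them are in bases. The labels also carry a protocol for another cell line and another kit, which were not used.

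As in the study, edgeR (version 4.0.16, under R 4.3.3) was applied to the counts. Genes passed filterByExpr (minimum count 10, minimum total 15), libraries were scaled by TMM, and the quasi-likelihood test was run with Benjamini-Hochberg adjustment over all genes, calling an adjusted p under 0.05. Genotypes were compared in 1 fit of the 6 libraries of a subset (3 residual degrees of freedom), and subsets and interactions in 1 fit of all 12 (6 residual degrees of freedom). Alternatives were DESeq2 (version 1.42.0), limma (version 3.58.1) on log2(RPKM + 1) and log2(RPKM + 0.1), RLE scaling, other count filters, fits of the 4 libraries compared, a replicate block, and leaving out each library. For CD8+ against CD4+ T cells the block is the pool of livers from which both subsets were sorted, and the deviations of same-numbered libraries correlated at 0.592 (WT), 0.587 (STAT3ko), and 0.654 (STAT3ko PD-1ko) over 12334 genes. Libraries of a group are separate pools of 3 recipients, and in the genotype fits without a block p-values measure the spread between such pools. The fit of all 12 libraries without a block treats the CD4+ and CD8+ libraries of a pool as independent, although they share livers. With the pool as a block, p-values measure the spread within pools.

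The 10 members and the other gene lists were chosen with earlier results of these data known. The text names all members, the targeted genes, and 1 or 2 genes most like each member. For each other cell cycle list and subset it names up to 2 called genes with the largest change from WT to STAT3ko PD-1ko. Cell type markers, Ccnd1, genes that overlap members, and Myc are named as well. On simulated data made from these libraries, the test recovered 50% of changes of 1 and 93% of changes of 2 (log2) for STAT3ko PD-1ko against WT in CD4+ T cells, 66% and 88.8% in CD8+ T cells, and 27.6% and 81.8% for the interaction of this comparison with the subset. For STAT3ko against WT the shares were 48.0% and 87.9% in CD4+ and 63.6% and 88% in CD8+ T cells. The simulated libraries were drawn independently, with no shared pool or replicate number, so these shares may not hold for the measured libraries. Promoter windows came from RefSeq (GRCm38.p6). Plots were made with matplotlib 3.10.9 under Python 3.11.15. The summed level of the B cell markers is not reported here.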

Additional observations from a re-analysis of the deposited data

Results flagged for a closer look

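Ccnd2 was singled out because its difference between STAT3ko PD-1ko and WT pointed in opposite directions in the subsets, in every library. In CD4+ T cells both STAT3ko PD-1ko libraries (393 and 314 CPM) lay below both WT libraries (414 and 437), and in CD8+ T cells both (254 and 217) lay above both WT libraries (189.6 and 165). The difference between the subsets was 0.68 on the log2 scale and did not pass the threshold (adjusted p = 0.520, edgeR's quasi-likelihood test with an interaction). Over 7 other settings it was 0.66 to 0.69 with adjusted p from 0.0915 (with the pool as a block) to 0.485, and with 1 library left out it was 0.53 to 0.84.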

How the results depend on the processing

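A limit was the number of libraries, 2 a group. The direction of the members called without a block was the same in all alternatives, but most calls in the genotype comparisons were lost when a group was left with 1 library: without STAT3ko PD-1ko replicate 2, 0 members were called in any of its 4 comparisons. With 1 library left out, the number of members called was 0 to 4 (CD4+) and 0 to 3 (CD8+) for STAT3ko PD-1ko against WT, 0 to 4 and 0 to 5 for STAT3ko PD-1ko against STAT3ko, and 1 to 2 (WT), 1 to 4 (STAT3ko), and 0 to 1 (STAT3ko PD-1ko) for CD8+ against CD4+ T cells. DESeq2 called 1 member in STAT3ko against WT in CD8+ T cells, and 5 (STAT3ko) and 1 (STAT3ko PD-1ko) in CD8+ against CD4+ T cells, where it called 1440 and 758 of all genes (1187 and 511 in edgeR). The latter count was also 1 with all genes of at least 1 count. In WT it was 1 with at least 10 counts in every library and with limma on log2(RPKM + 1) or log2(RPKM + 0.1). The cause of these differences was not tested.

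Whether the replicate number pairs libraries of different genotypes is not stated. The supplemental methods mention batches for the T cell receptor libraries of the study, and not for these RNA libraries. Deviations of same-numbered libraries correlated at 0.638, 0.307, and 0.200 in CD4+ and 0.658, 0.163, and 0.0587 in CD8+ T cells (WT with STAT3ko, WT with STAT3ko PD-1ko, and STAT3ko with STAT3ko PD-1ko). With the number as a replicate block, 1 member (Cdk6) was called in STAT3ko against WT in CD4+ T cells (2.53% of all genes), 8 in STAT3ko PD-1ko against STAT3ko in CD4+ T cells (26.0%), and 5 in STAT3ko PD-1ko against WT in CD4+ T cells (26.0%). The members gained were Cdk6 in the first, Ccnd2, Cdk6, Rb1, and Cdkn1a in the second, Rb1 in the third (-0.39, adjusted p = 0.0347, edgeR with the block), and in CD8+ T cells Ccnd2 against WT (4 members and 24.7% of all genes called) and Ccnd3 against STAT3ko (6 members and 24.4%), and the block changed no other call of a member. Over all genes the block raised the CD4+ calls from 40 to 303 (STAT3ko against WT), from 1538 to 3104, and from 1324 to 3105 (STAT3ko PD-1ko against WT and STAT3ko). For STAT3ko against WT, DESeq2 called 271 and 218 genes (40 and 7 in edgeR, CD4+ and CD8+), edgeR on all genes of at least 1 count 165 and 66, and edgeR on only the 4 libraries compared 1 and 0. In CD8+ T cells this count was also 1 with at least 10 counts in every library, and 3 and 1 with limma at a pseudocount of 1 and 0.1. DESeq2 called 2100 genes for STAT3ko PD-1ko against STAT3ko in CD4+ T cells. With the pool as a block the counts for CD8+ against CD4+ T cells were 7, 6, and 5 (WT, STAT3ko, and STAT3ko PD-1ko), while those of all genes rose from 1294, 1187, and 511 to 2991, 3077, and 1774.

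Some differences that were not called without a block changed sign when 1 library was left out, among them that of Cdkn1a between CD8+ and CD4+ T cells in STAT3ko, which was called with the pool as a block. For STAT3ko against WT in CD4+ T cells the log2 ranges were -0.0476 to 0.32 (Ccnd3), -0.13 to 0.39 (Ccne1), -0.0544 to 0.0198 (E2f1), -0.0618 to 0.20 (Rb1), and -1.38 to 0.29 (Cdkn1a), and in CD8+ T cells -0.98 to 0.78 (Cdkn1a), -0.0311 to 0.0640 (Cdkn1b), and -0.16 to 0.21 (E2f1). For STAT3ko PD-1ko against WT they were -0.14 to 0.28 (Cdk6), -0.28 to 0.96 (Cdkn1a), and -0.14 to 0.24 (Cdkn2c) in CD4+, and -0.0933 to 0.10 (Cdk6, and -0.00206 with all genes of at least 1 count), -0.32 to 1.08 (Cdkn1a), and -0.26 to 0.19 (Rb1) in CD8+ T cells. For STAT3ko PD-1ko against STAT3ko in CD8+ T cells Cdkn1a ranged from -0.27 to 1.21. For CD8+ against CD4+ T cells the ranges were -0.15 to 0.0275 (Ccnd3) and -0.0932 to 0.30 (Cdk6) in WT, -0.14 to 0.22 (Ccnd3), -1.84 to 0.0130 (Cdkn1a), and -0.0514 to 0.0361 (Cdkn2c, and 0.0202 and 0.0208 with limma at a pseudocount of 1 and 0.1) in STAT3ko, and -0.27 to 0.11 (Rb1) in STAT3ko PD-1ko.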
